A study of Mus musculus with 9 samples.

Results

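The acute phase genes and the interleukin 6 receptor and inhibitor genes of the liver were followed in ob/ob mice given tauroursodeoxycholic acid (TUDCA). They are 10 of the 19938 genes measured with a probe set of exactly 1 symbol: Il6ra, Socs3, Lcn2, Saa3, Saa4, Orm2, Hp, Hpx, Apcs and Crp. They were chosen by name as acute phase proteins with Il6ra and Socs3, with earlier results of these data known. Counts of these genes beside the share of all genes are therefore descriptions and no test of the set. All 10 had a probe set of exactly 1 symbol. Each has 1 probe set except Socs3, which has 2, so 11 probe sets stand behind the 10 genes.

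Liver RNA was hybridised to 9 Affymetrix Mouse Gene 1.0 ST arrays, 3 for each of 3 groups. The OB-TUDCA group were ob/ob mice (strain B6.V-Lepob/J), which lack functional leptin in every tissue, given TUDCA, a taurine-conjugated bile acid, by gastric gavage at 500 mg/kg 2 times a day for 3 weeks. The OB-control group were ob/ob mice given tap water by the same route and schedule, and the N-control group were C57BL/6J wild type mice given tap water likewise. The mice were male, 6 weeks old at the start, ate normal chow freely and were fasted for 8 h before the liver was taken. The arrays are labelled as biological replicates, while the study had 6 mice in each group. The ob/ob mutation leaves the transcript in place and Lep is an adipocyte gene, so its signal is no check of the genotype. Lep ranged from 2.86 to 3.07 in OB-TUDCA, from 2.83 to 3.18 in OB-control and from 2.76 to 3.22 in N-control livers on the log2 scale.

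Signals are log2 values made with RMA, which brings the arrays to a common distribution, so that 1 unit is a 2-fold difference. The 9 measured hepatocyte markers averaged 12.22 to 12.28 in OB-TUDCA, 12.11 to 12.27 in OB-control and 12.26 to 12.32 in N-control livers. The 19 measured pancreatic acinar markers averaged 10.18 in N-control replicate 2 and 3.83 to 4.23 in the other 8 arrays, so calls that changed without that array are given with it and without it. Groups were compared with limma, a linear model per gene that borrows its spread across genes, and p-values were adjusted over all 19938 genes.

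The acute phase response is the change in plasma proteins that the liver secretes during inflammation or injury. Interleukin 6 binds its receptor Il6ra on the hepatocyte, the pair recruits the shared chain Il6st (gp130), and Jak kinases then activate Stat3, which together with C/EBP factors raises the transcription of acute phase genes. Socs3 is itself induced by Stat3 and shuts the signal off, while interleukin 1 and tumour necrosis factor act on some of the same genes through NF-kB, and glucocorticoids strengthen many of them.

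The promoters of the receptor, its inhibitor and 4 of the acute phase genes are shown so that these inputs can be looked for in the sequence. Each run is the 250 bases before the RefSeq start, 5′ to 3′ on the strand of the gene, in the build GRCm38.p6. Capitals mark exact matches on either strand to a STAT element (TTCNNNGAA), an interleukin 6 response element (CTGGGAA), a C/EBP element (TTGCNNAA), an NF-kB element (GGNNTTTCC) or a glucocorticoid element (ACANNNTGT). The windows are, for Il6ra, chr3:89913197-89913446, minus strand; for Socs3, chr11:117969367-117969616, minus strand; for Lcn2, chr2:32387740-32387989, minus strand; for Saa3, chr7:46715677-46715926, minus strand; for Orm2, chr4:63362199-63362448, plus strand; and for Apcs, chr1:172895055-172895304, minus strand.
Il6ra: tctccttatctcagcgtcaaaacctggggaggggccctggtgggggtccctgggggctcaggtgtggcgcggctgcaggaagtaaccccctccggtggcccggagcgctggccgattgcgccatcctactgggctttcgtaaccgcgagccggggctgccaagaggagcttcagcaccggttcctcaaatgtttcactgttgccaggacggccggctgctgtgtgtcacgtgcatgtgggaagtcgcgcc
Socs3: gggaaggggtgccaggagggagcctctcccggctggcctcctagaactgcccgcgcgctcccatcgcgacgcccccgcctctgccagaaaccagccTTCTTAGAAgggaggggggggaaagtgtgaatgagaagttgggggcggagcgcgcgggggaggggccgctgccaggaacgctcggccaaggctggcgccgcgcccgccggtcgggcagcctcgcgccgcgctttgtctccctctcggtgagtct
Lcn2: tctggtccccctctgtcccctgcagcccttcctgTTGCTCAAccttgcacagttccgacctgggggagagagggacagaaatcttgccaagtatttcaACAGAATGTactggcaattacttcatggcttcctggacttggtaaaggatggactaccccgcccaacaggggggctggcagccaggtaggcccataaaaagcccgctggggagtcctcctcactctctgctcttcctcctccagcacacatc
Saa3: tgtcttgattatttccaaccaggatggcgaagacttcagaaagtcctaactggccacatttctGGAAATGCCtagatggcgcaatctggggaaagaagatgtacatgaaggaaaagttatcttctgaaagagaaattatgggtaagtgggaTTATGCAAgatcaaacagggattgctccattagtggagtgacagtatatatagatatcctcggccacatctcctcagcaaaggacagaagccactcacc
Orm2: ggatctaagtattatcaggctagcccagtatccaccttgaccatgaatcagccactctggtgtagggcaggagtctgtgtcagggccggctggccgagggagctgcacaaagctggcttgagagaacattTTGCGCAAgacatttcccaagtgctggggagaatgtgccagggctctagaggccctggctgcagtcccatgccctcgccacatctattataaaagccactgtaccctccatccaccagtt
Apcs: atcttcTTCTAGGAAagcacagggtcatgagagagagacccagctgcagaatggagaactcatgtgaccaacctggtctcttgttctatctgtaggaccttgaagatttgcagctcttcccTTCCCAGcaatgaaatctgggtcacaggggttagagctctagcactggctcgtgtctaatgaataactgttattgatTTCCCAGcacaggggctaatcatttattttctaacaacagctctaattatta

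A promoter window was given for 9 of the 10 genes, all but Hp. The C/EBP letters were found in 5 of these 9 windows (Lcn2, Saa3, Saa4, Orm2 and Hpx), against 10.8% of all 32851 mouse windows of the same kind, which run from 250 bases before to 50 after the start. The STAT letters were in the windows of Socs3 and Apcs (8.3% of all windows). The shorter interleukin 6 response element occurred at 2 places in the Apcs window (11.1% of all windows). The NF-kB letters were found only in Saa3 (5.82%) and the glucocorticoid letters only in Lcn2 (6.85%) among the 9 windows. The windows of Il6ra and Crp held none of the 5 motifs, which says only that these letters are not there. No motif overlapped another in the printed runs, and no match was tested as a binding site.

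Between OB-TUDCA and OB-control livers, 1 of the 10 genes passed an adjusted p of 0.05 in limma, and it was Il6ra, higher with TUDCA. Over all genes tested, 0.301% passed, 0.115% higher and 0.186% lower. Without adjustment, 6 of the 10 had a limma p under 0.05 (5 higher and 1 lower), against 12% of all genes (6.26% higher and 5.72% lower). The arrays of the groups did not overlap for 5 of the 10 genes, against 13.8% of all genes. Il6ra, Socs3, Lcn2 and Hp lay higher (7.26% of all genes) and Crp lay lower (6.53%). The median log2 difference was 0.39 over the 10 genes and 0.01 over all genes. In whole liver, a change in the number of cells of a type cannot be told apart from a change in RNA per cell.

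**Figure D1:**
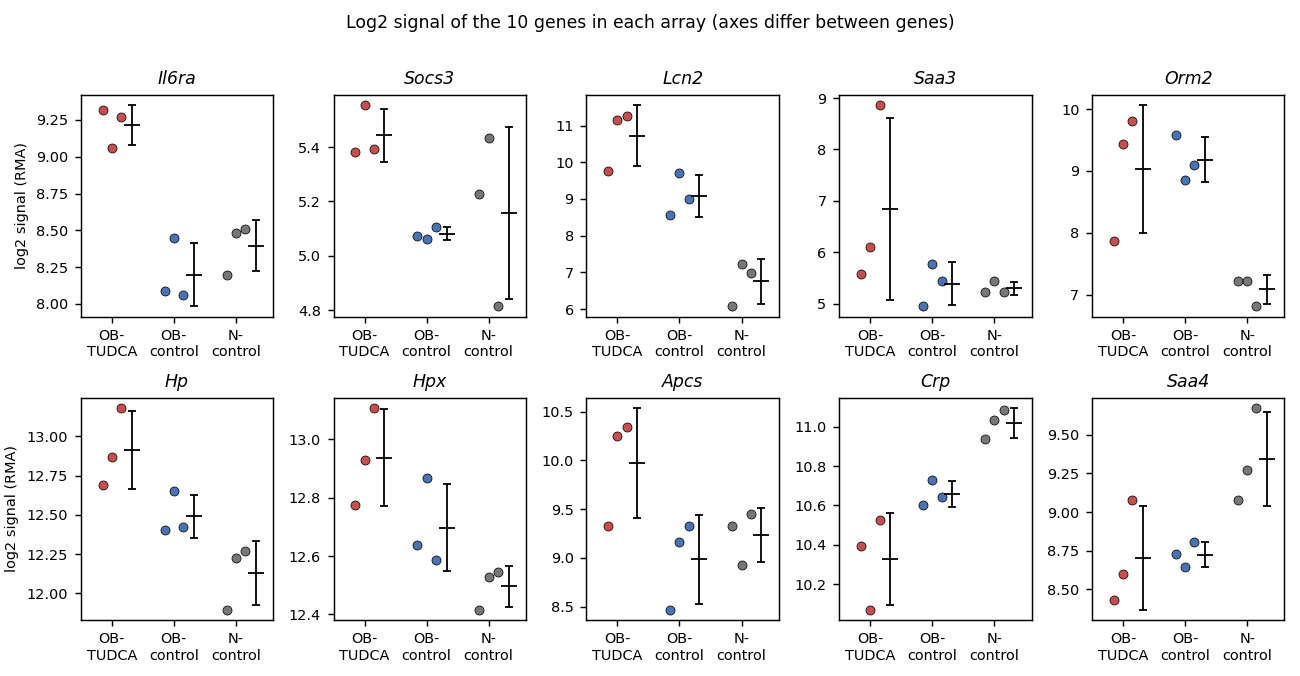
Log2 signal of the 10 genes in each of the 9 arrays, with OB-TUDCA, OB-control and N-control from left to right; points are arrays and the bar beside them is the mean with the SD (n = 3), on a vertical axis of its own for each gene. Il6ra lies between 9.06 and 9.31 in OB-TUDCA and no higher than 8.51 in the other arrays, while Lcn2 lies apart in all 3 groups.

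Il6ra, the ligand-binding chain of the interleukin 6 receptor (probe set 10499655), had a log2 signal of 9.31, 9.06 and 9.27 in the 3 OB-TUDCA livers. It had 8.09, 8.45 and 8.06 in OB-control livers. In N-control livers it had 8.20, 8.48 and 8.51. Each OB-TUDCA array stood above all 6 others, and the OB-control and N-control arrays overlapped. The log2 difference was 1.02 (standard error 0.13), or 2.02-fold, between OB-TUDCA and OB-control livers, with an adjusted p of 0.0262 in limma, which was rank 17 among all genes. Between OB-control and N-control livers it was -0.20 (standard error 0.13, limma adjusted p = 0.613).

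The Il6ra call depended on single arrays, while the size of the difference moved little. Over all alternatives the log2 difference between OB-TUDCA and OB-control livers stayed between 0.95 and 1.14. The limma adjusted p was 0.0607 without N-control replicate 2, 0.125 without OB-control replicate 1, 0.0753 without OB-control replicate 3, 0.104 without OB-TUDCA replicate 2 and 0.0989 without OB-TUDCA replicate 3. Over all alternatives it ranged from 0.0173 to 0.448, the highest with the methods' t-test. That test passed 0 of all genes here after adjustment. The study selected its array genes with fold change and significance analysis of microarrays (SAM) instead. In limma the adjusted p of Il6ra was 0.116 with only the 6 arrays compared and 0.0605 when the mean of the acinar markers of the pancreas was a covariate.

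Socs3, the feedback inhibitor of the pathway, had 5.38, 5.56 and 5.39 in OB-TUDCA livers, 5.07, 5.06 and 5.11 in OB-control livers and 5.23, 5.43 and 4.81 in N-control livers, as the mean of its probe sets. OB-TUDCA lay above OB-control, and the N-control arrays overlapped both. The log2 difference between OB-TUDCA and OB-control livers was 0.36 (standard error 0.14, limma adjusted p = 0.338). The 2 probe sets disagreed in size: the difference was 0.13 on probe set 10383010 and 0.60 on probe set 10393449, with limma adjusted p of 0.786 and 0.337. On the second of them the signal was 6.02, 6.35 and 6.34 in OB-TUDCA, 5.40, 5.90 and 5.62 in OB-control and 6.14, 6.28 and 5.33 in N-control livers.

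Lcn2, lipocalin 2, which binds the iron-carrying siderophores of bacteria (probe set 10481627), showed the widest differences of the 10 genes. Its log2 signal was 9.76, 11.16 and 11.25 in OB-TUDCA livers, 8.57, 9.70 and 9.01 in OB-control livers and 6.07, 7.23 and 6.98 in N-control livers. The 3 groups did not overlap, although OB-TUDCA replicate 1 and OB-control replicate 2 were only 0.07 apart. Lcn2 averaged 10.73 ± 0.84 in OB-TUDCA and 6.76 ± 0.61 in N-control livers (SD, n = 3 arrays each), a log2 difference of 3.97 (standard error 0.45), or 15.6-fold, with a limma adjusted p of 0.00342. With each array left out in turn this adjusted p lay between 0.00199 and 0.0232.

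The steps within that difference missed the threshold. Between OB-TUDCA and OB-control livers the log2 difference of Lcn2 was 1.64 (standard error 0.45, limma adjusted p = 0.167), and between OB-control and N-control livers it was 2.33 (standard error 0.45, limma adjusted p = 0.0528). Without OB-TUDCA replicate 1, which enters the comparison of OB-control with N-control only through the spread shared by all groups, that adjusted p was 0.0293.

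Saa3, a serum amyloid A made in inflamed tissue (probe set 10563597), was high in a single array. It had 5.58, 6.09 and 8.87 in OB-TUDCA livers, 4.95, 5.78 and 5.45 in OB-control livers and 5.22, 5.44 and 5.23 in N-control livers. OB-TUDCA replicate 3 stood far above the other 8 arrays, among which OB-TUDCA and OB-control overlapped. The log2 difference between OB-TUDCA and OB-control livers was 1.46 (standard error 0.69, limma adjusted p = 0.445), and 0.45 without OB-TUDCA replicate 3.

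Orm2, an alpha-1-acid glycoprotein (orosomucoid) that binds drugs and lipids in plasma (probe set 10505451), separated ob/ob from lean livers. It had 7.87, 9.43 and 9.81 in OB-TUDCA livers, 9.57, 8.86 and 9.10 in OB-control livers and 7.22, 7.22 and 6.81 in N-control livers. All 6 ob/ob arrays lay above the N-control arrays, and the OB-TUDCA and OB-control arrays overlapped. The log2 difference was 2.09 between OB-control and N-control livers (standard error 0.43, limma adjusted p = 0.0641) and 1.95 between OB-TUDCA and N-control livers (standard error 0.43, limma adjusted p = 0.0423). Between OB-TUDCA and OB-control livers it was -0.14 (standard error 0.43, limma adjusted p = 0.931), and 0.44 without OB-TUDCA replicate 1, the lowest ob/ob array. Orm2 shares much of its sequence with Orm1 and Orm3, so the probe sets may read more than 1 of these genes. Orm1 differed by 0.14 or less in every comparison, while Orm3 had 5.37, 7.30 and 7.02 in OB-TUDCA, 7.69, 6.16 and 7.17 in OB-control and 4.92, 5.14 and 5.15 in N-control livers.

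**Figure D2:**
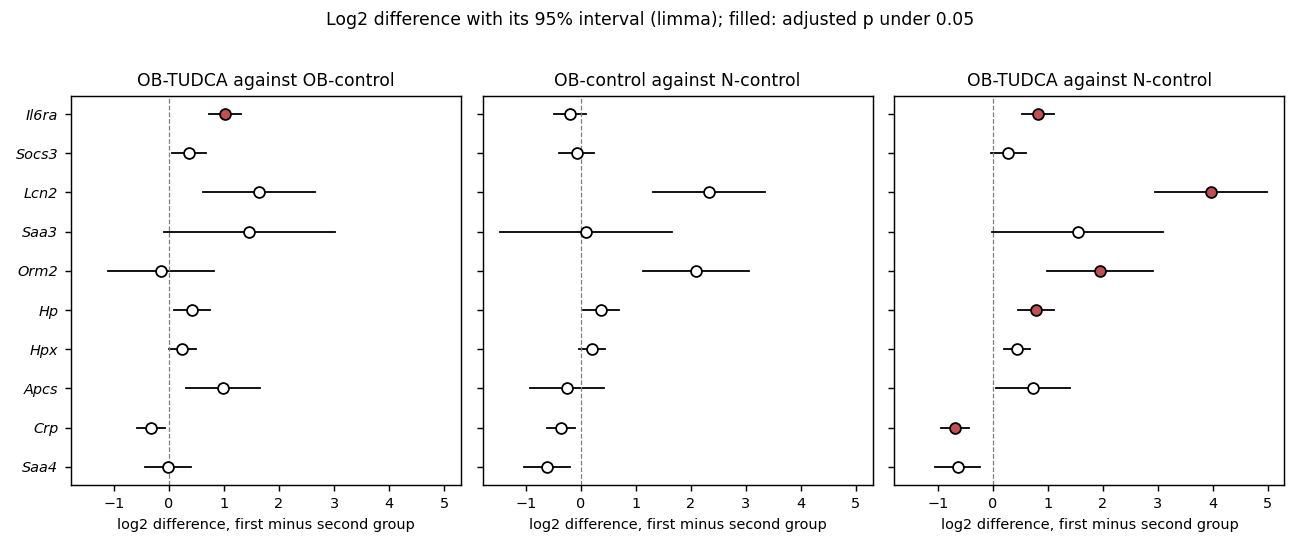
Log2 difference of each of the 10 genes (first minus second group named above each panel) with its 95% interval from limma; filled points passed an adjusted p of 0.05. Only Il6ra is filled for OB-TUDCA against OB-control, none for OB-control against N-control, and 5 for OB-TUDCA against N-control, of which Crp alone is negative.

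Hp and Hpx, the plasma proteins that capture free haemoglobin and free haem, differed by small amounts. Haptoglobin (Hp, probe set 10581605) had 12.69, 12.87 and 13.18 in OB-TUDCA livers, 12.40, 12.65 and 12.42 in OB-control livers and 11.90, 12.23 and 12.27 in N-control livers. Its 3 groups did not overlap. The log2 difference was 0.42 between OB-TUDCA and OB-control livers (standard error 0.15, limma adjusted p = 0.274), 0.36 between OB-control and N-control livers (limma adjusted p = 0.354) and 0.78 between OB-TUDCA and N-control livers (limma adjusted p = 0.0226). Hemopexin (Hpx, probe set 10566477) had 12.77, 12.93 and 13.11 in OB-TUDCA, 12.64, 12.87 and 12.59 in OB-control and 12.42, 12.53 and 12.55 in N-control livers. Both ob/ob groups lay above N-control and overlapped each other, and none of the comparisons passed (limma adjusted p from 0.0641 to 0.51).

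The pentraxins Apcs and Crp differed in the sign of their difference between OB-TUDCA and OB-control livers. Apcs, serum amyloid P, is the pentraxin that rises in the acute phase of mice, whereas Crp, C-reactive protein, does so in humans and little in mice. Apcs (probe set 10360328) had 9.33, 10.25 and 10.35 in OB-TUDCA livers, 8.47, 9.16 and 9.33 in OB-control livers and 9.33, 8.93 and 9.45 in N-control livers. OB-TUDCA replicates 2 and 3 stood above the other 7 arrays, and OB-TUDCA replicate 1 tied with OB-control replicate 3. The log2 difference between OB-TUDCA and OB-control livers was 0.99 (standard error 0.30, limma adjusted p = 0.21).

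Crp (probe set 10351852) had 10.39, 10.07 and 10.52 in OB-TUDCA livers, 10.60, 10.73 and 10.64 in OB-control livers and 10.94, 11.03 and 11.08 in N-control livers. Its 3 groups did not overlap, with OB-TUDCA lowest and N-control highest. Crp averaged 10.33 ± 0.23 in OB-TUDCA and 11.02 ± 0.07 in N-control livers (SD, n = 3 arrays each). The log2 difference was -0.69 (standard error 0.11, limma adjusted p = 0.0147), or 1.61-fold lower in OB-TUDCA livers, and -0.33 against OB-control livers (standard error 0.11, limma adjusted p = 0.276).

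Saa4, the constitutive serum amyloid A (probe set 10563602), had lower means in ob/ob livers. It had 8.43, 8.60 and 9.08 in OB-TUDCA, 8.73, 8.64 and 8.80 in OB-control and 9.08, 9.27 and 9.67 in N-control livers. OB-control lay below N-control, and the highest OB-TUDCA array reached the lowest N-control array. The log2 difference was -0.62 between OB-control and N-control livers (standard error 0.18, limma adjusted p = 0.194) and -0.02 between OB-TUDCA and OB-control livers (standard error 0.18, limma adjusted p = 0.979).

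Between OB-control and N-control livers, 0 of the 10 genes passed in limma, against 0.948% of all genes (0.456% higher and 0.492% lower). Without adjustment, 5 of the 10 had a limma p under 0.05 (3 higher and 2 lower), against 12.1% of all genes (6.55% higher and 5.59% lower). The methods' t-test gave 4 unadjusted and 0 after adjustment, against 1649 and 1 of all genes, so this 0 says little about the 10. The arrays did not overlap for 6 genes, against 15.3% of all genes: Lcn2, Orm2, Hp and Hpx lay higher in OB-control (8.49% of all genes), and Saa4 and Crp lay lower (6.77%). The median log2 difference was 0.01 over the 10 genes and 0.02 over all genes, with 5 means above and 5 below those of N-control. Without OB-TUDCA replicate 1 the count was 2, Lcn2 and Orm2 (limma adjusted p of 0.0293 and 0.00468), though neither difference changed. Over all alternatives the adjusted p ranged from 0.0024 to 0.401 for Lcn2 and from 0.00468 to 0.251 for Orm2.

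Between OB-TUDCA and N-control livers, 5 of the 10 genes passed in limma, against 3.24% of all genes. Lcn2, Orm2, Il6ra and Hp were higher in OB-TUDCA (1.35% of all genes), and Crp was lower (1.89% of all genes). Without adjustment, 8 of the 10 had a limma p under 0.05 (6 higher and 2 lower), against 18.5% of all genes (10.4% higher and 8.15% lower). The arrays did not overlap for 7 genes, against 20.7% of all genes, 6 of them higher (11.8%) and 1 lower (8.95%). The median log2 difference was 0.76 over the 10 genes, against 0.04 over all genes. This comparison shares arrays with both others, so the 3 are not independent. Leaving out N-control replicate 1, N-control replicate 2 or OB-TUDCA replicate 3 lowered the count to 2, and leaving out OB-TUDCA replicate 2 lowered it to 3.

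Which of these calls held differed by gene. Lcn2 passed with any array left out. Il6ra lost the call without N-control replicate 1 (limma adjusted p = 0.0548) or OB-TUDCA replicate 3 (0.0503), and Crp without N-control replicate 2 (0.0549). Hp lost it without N-control replicate 1 (0.0906), N-control replicate 2 (0.0581), and when OB-TUDCA replicate 2 (0.0783) or 3 (0.0604) was left out. Orm2 kept its call only when OB-TUDCA replicate 1 was the array left out (0.0565 to 0.155 without each of the other 8). Over all alternatives the adjusted p ranged from 0.000116 to 0.201 for Lcn2, from 0.00847 to 0.205 for Il6ra, from 0.00924 to 0.257 for Crp, from 0.0146 to 0.29 for Hp and from 0.00212 to 0.366 for Orm2, with the methods' t-test giving the highest each time.

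The rest of the interleukin 6 pathway was measured by 22 of 24 listed genes. In limma 0 of them passed between OB-TUDCA and OB-control livers, against 0.301% of all genes. Without adjustment 4 had a limma p under 0.05, all higher, against 6.26% of all genes. All OB-TUDCA arrays lay above OB-control for 7 of the 22 genes and below for 0, against 7.26% and 6.53% of all genes. The transcript of interleukin 6 itself, Il6, ranged from 2.08 to 2.34 on all 9 arrays, with 2.10, 2.27 and 2.19 in OB-TUDCA, 2.19, 2.34 and 2.27 in OB-control and 2.08, 2.19 and 2.15 in N-control livers. The 3 groups overlapped, at a signal far below the array medians of 4.50 to 4.58, where a difference could be missed. Il6st, the shared receptor chain, had 9.31, 9.10 and 9.53 in OB-TUDCA, 9.53, 9.46 and 9.29 in OB-control and 9.87, 9.60 and 9.77 in N-control livers. Both ob/ob groups lay below N-control, with a log2 difference of -0.43 between OB-TUDCA and N-control livers (standard error 0.12, limma adjusted p = 0.101).

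Downstream of the receptor, Jak1, a kinase bound to it, differed by 0.09 or less in every comparison. Stat3 had 9.43, 9.44 and 9.65 in OB-TUDCA, 8.89, 9.20 and 8.98 in OB-control and 8.91, 8.85 and 9.20 in N-control livers. OB-TUDCA lay above both other groups, by 0.48 over OB-control (limma adjusted p = 0.127) and 0.52 over N-control (limma adjusted p = 0.0527). Cebpb, a C/EBP factor of the acute phase, had 8.26, 8.14 and 8.22 in OB-TUDCA, 7.48, 7.81 and 7.45 in OB-control and 8.13, 7.98 and 7.97 in N-control livers. OB-control lay below both other groups, and the log2 difference between OB-TUDCA and OB-control was 0.63 (standard error 0.11, limma adjusted p = 0.0529). Cebpd, its relative, differed by 0.92 in the same comparison (standard error 0.27, limma adjusted p = 0.199).

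The receptor of leukaemia inhibitory factor, Lifr, which also signals through gp130, was the 1 listed pathway gene past the threshold in any comparison. Relative to N-control livers it fell by 1.26 in OB-TUDCA (standard error 0.20, limma adjusted p = 0.0125) and by 1.19 in OB-control livers (standard error 0.20, limma adjusted p = 0.0308). These comparisons share the N-control arrays. The first call was lost without N-control replicate 1 (limma adjusted p = 0.0538). The second was lost when any of 6 arrays was left out, N-control replicate 2 among them (0.0174 to 0.147 over the 9 omissions). Lepr, the leptin receptor, had 5.82, 5.11 and 4.89 in OB-TUDCA, 4.17, 4.56 and 4.27 in OB-control and 6.56, 4.75 and 4.44 in N-control livers. Its N-control replicate 1 stood above all other arrays (limma adjusted p from 0.485 to 0.986 over the comparisons).

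Among 26 measured of 30 other listed positive acute phase genes, 0 passed between OB-TUDCA and OB-control livers in limma, against 0.301% of all genes. Without adjustment 11 had a limma p under 0.05, of which 10 were higher, against 6.26% higher and 5.72% lower over all genes. The means of 22 genes lay above those of OB-control. The median log2 difference of the list was 0.28, against 0.01 over all genes. Leaving out OB-control replicate 2 brought Mt2 past the threshold there, with Cebpb of the pathway list, and leaving out OB-TUDCA replicate 1 brought Steap4 and Serpina3n, a protease inhibitor. Between OB-TUDCA and N-control livers 6 rose and 0 fell, against 1.35% and 1.89% of all genes. Without adjustment 14 were higher and 2 lower, against 10.4% and 8.15% of all genes. The metal-binding metallothioneins Mt2 and Mt1 rose by 2.18 and 1.22 on the log2 scale (limma adjusted p of 0.0185 and 0.0487). Lrg1, a leucine-rich glycoprotein, rose by 1.35 (0.0411) and Steap4, a metalloreductase, by 0.997 (0.0203). Lbp, which binds lipopolysaccharide, rose by 0.86 (0.0188) and Agt, angiotensinogen, by 0.44 (0.0423). The count depended on single arrays: it was 1 (Mt2) without N-control replicate 2, 0 when N-control replicate 1 or either of OB-TUDCA replicates 2 and 3 was left out, 3 without N-control replicate 3 and 4 to 8 without each of the other 4 arrays. Relative to N-control livers, all OB-TUDCA arrays lay higher for 15 of the 26 genes and lower for 2, against 11.8% and 8.95% of all genes. These 2 were Hamp, hepcidin, the hormone that limits iron export (-1.89, limma adjusted p = 0.164), and Mbl1, a mannose-binding lectin (-0.77, limma adjusted p = 0.13). Hamp had 9.72, 10.61 and 8.48 in OB-TUDCA, 11.25, 12.40 and 10.15 in OB-control and 10.66, 11.93 and 11.89 in N-control livers, with a log2 difference of -1.66 between OB-TUDCA and OB-control livers (limma adjusted p = 0.344). Between OB-control and N-control livers 0 of the list passed, against 0.948% of all genes. Without adjustment 9 had a limma p under 0.05, of which 6 were higher, against 6.55% higher and 5.59% lower over all genes.

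**Figure D3:**
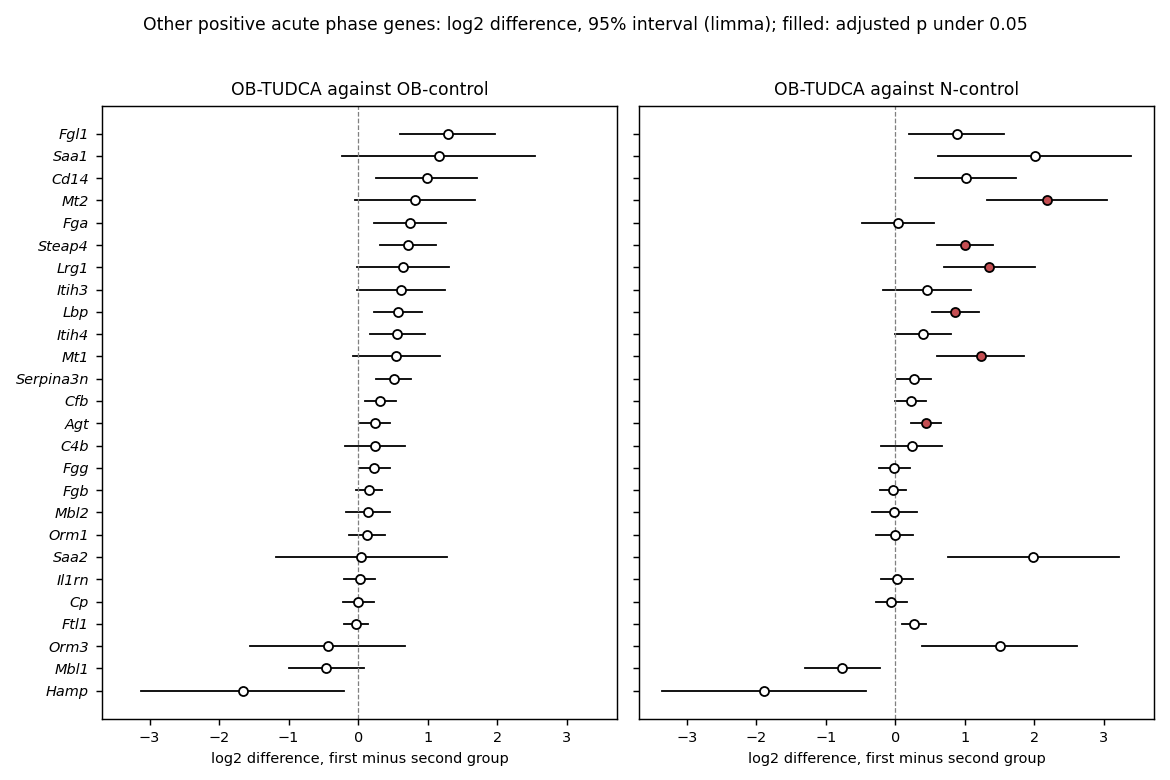
Log2 difference (first minus second group named above each panel) with its 95% interval from limma for the 26 measured other positive acute phase genes; filled points passed an adjusted p of 0.05. None is filled for OB-TUDCA against OB-control, where 22 points lie above 0, and 6 are filled for OB-TUDCA against N-control.

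Saa1 and Saa2, the inducible serum amyloids, lie beside Saa3 and Saa4 on chromosome 7. Their sequences are nearly identical, so their signals cannot be cleanly separated. Saa1 had 5.16, 6.43 and 7.67 in OB-TUDCA, 4.30, 6.26 and 5.21 in OB-control and 4.23, 4.25 and 4.77 in N-control livers. Saa2 had 5.97, 7.65 and 8.41 in OB-TUDCA, 6.53, 7.80 and 7.56 in OB-control and 5.08, 5.52 and 5.48 in N-control livers. For both genes OB-TUDCA lay above N-control and overlapped OB-control, and OB-TUDCA replicate 3 was the highest array, as it was for Saa3 (limma adjusted p from 0.0929 to 0.983 over their comparisons).

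The negative acute phase genes, which the liver lowers in inflammation, were measured by 11 of 13. Cyp7b1 fell in OB-TUDCA (by 3.45, limma adjusted p = 0.000284) and OB-control livers (by 3.22, limma adjusted p = 0.000485) relative to N-control livers, and the others did not pass. Cyp7b1 is an oxysterol hydroxylase and not a secreted plasma protein, so its fall alone is no sign of an acute phase response. Of 15 measured of 17 genes of the interleukin 1, tumour necrosis factor and NF-kB input, Il1rap, the accessory chain of the interleukin 1 receptor, fell by 0.68 in OB-TUDCA (limma adjusted p = 0.0204) and by 0.85 in OB-control livers (limma adjusted p = 0.0159) relative to N-control livers. The Cyp7b1 calls held with any array left out, whereas those of Il1rap were each lost in 5 of the 9 omissions, without N-control replicate 2 among them (highest limma adjusted p of 0.0865 in OB-TUDCA and 0.0824 in OB-control livers). In neither list did any gene pass between OB-TUDCA and OB-control livers. At an unadjusted limma p under 0.05, 1 and 3 genes were higher there and 0 lower, against 6.26% and 5.72% of all genes.

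Of 10 measured of 11 glucocorticoid-induced genes, Fkbp5, a chaperone of the glucocorticoid receptor, rose by 2.61 in OB-TUDCA relative to N-control livers (standard error 0.39, limma adjusted p = 0.0101). Dusp1, a phosphatase of Map kinases, fell by 1.43 in OB-control relative to N-control livers (standard error 0.27, limma adjusted p = 0.0466). Fkbp5 passed with any array left out, and Dusp1 lost its call in 7 of the 9 omissions, without N-control replicate 2 among them (0.0272 to 0.188). Between OB-TUDCA and OB-control livers 0 passed, with Fkbp5 at 1.75 (limma adjusted p = 0.101) and Dusp1 at 1.24 (0.0914). Without adjustment 4 had a limma p under 0.05 in this comparison, all higher, against 6.26% of all genes. The glucocorticoid receptor Nr3c1 differed by -0.15 there (limma adjusted p = 0.676).

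The genes most like Il6ra were found by the root mean square difference of log2 values, each gene centred on its own mean over the 9 arrays. They were Tspan4, a tetraspanin (0.16), Mustn1 (0.17), Slc39a14, a zinc and iron transporter (0.21), Snora73b, a small nucleolar RNA (0.22), and Rpph1, the RNA of ribonuclease P (0.23), where Il6ra itself varied by 0.46 around its mean. In all 5 each OB-TUDCA array lay above the OB-control and N-control arrays. The genes most like Lcn2 were Fkbp5 (0.86), Gprc5b, an orphan receptor (0.89), Mt2 (0.90), Saa2 (0.92) and Saa1 (0.95), and Lcn2 itself varied by 1.72. In these 5 each OB-TUDCA array lay above the N-control arrays. The genes were picked for likeness over these same arrays, so their separation of the groups follows in large part from the choice. These likenesses are descriptions over 9 arrays and carry no test.

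**Figure D4:**
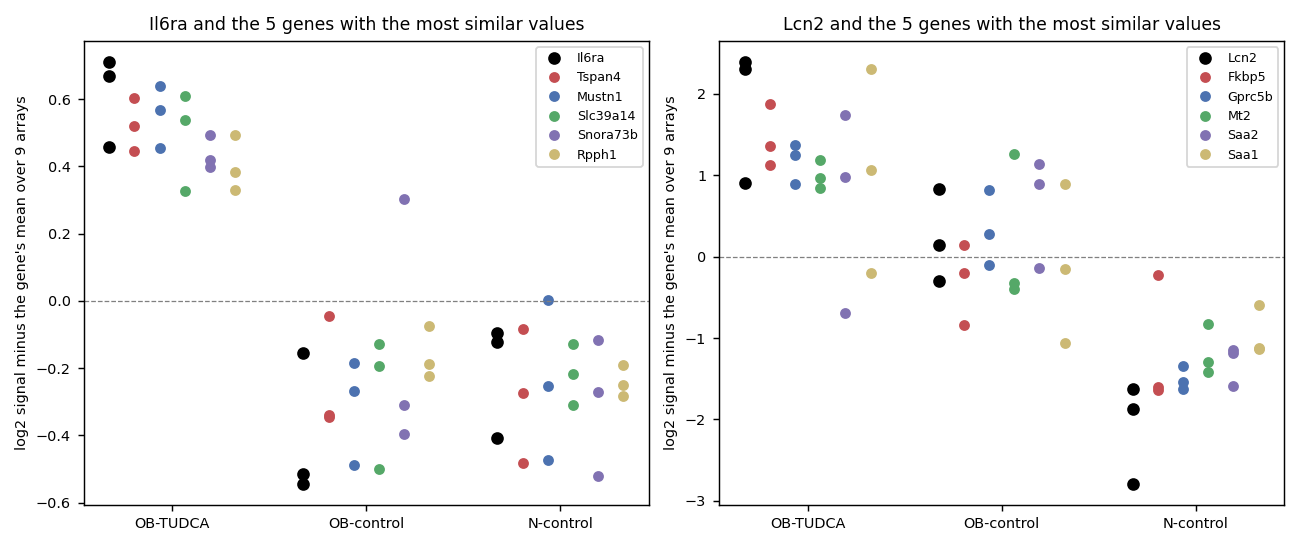
Log2 signal minus the gene's own mean over the 9 arrays for Il6ra (left) and Lcn2 (right), each with the 5 genes of the most similar values, in OB-TUDCA, OB-control and N-control livers; each point is an array. For each gene on the left, every OB-TUDCA array lies above all other arrays, and for each gene on the right, every OB-TUDCA array lies above the N-control arrays. The 5 genes were picked for likeness over these same arrays.

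Lcn2 and Saa3 are also made by neutrophils or macrophages, so the markers of these cells are set beside them. Of 12 neutrophil markers 0 passed in any comparison (at an unadjusted p under 0.05, 1 was above OB-control and 5 above N-control in OB-TUDCA livers). Over all genes these shares were 6.26% and 10.4%. In OB-TUDCA livers 11 of the 12 means lay above OB-control and 10 above N-control. The median log2 differences were 0.20 and 0.24, against 0.01 and 0.04 over all genes. By signal, 10 of the 12 markers were in the lowest of 3 equal bins of all genes, where none of the 10 acute phase and receptor genes was. Their summed linear signal was 131 to 169 in OB-TUDCA, 129 to 136 in OB-control and 124 to 135 in N-control livers. Of 12 Kupffer cell and macrophage markers 0 passed in any comparison. At an unadjusted limma p under 0.05, 2 were above OB-control and 2 above N-control in OB-TUDCA livers, against 6.26% and 10.4% of all genes. The mean log2 signal of the 12 macrophage markers was 7.06, 7.71 and 7.71 in OB-TUDCA replicates 1, 2 and 3. It was 6.98 to 7.36 in OB-control and 6.96 to 7.31 in N-control livers. The OB-TUDCA arrays with the higher macrophage signal, replicates 2 and 3, also had more Lcn2, Saa3, Saa4, Orm2, Apcs, Hp and Hpx than replicate 1. Socs3 was higher in both as well, by little in replicate 3. Il6ra went the other way (9.06 and 9.27, against 9.31 in replicate 1), and Crp was split (10.07 and 10.52, against 10.39). Replicate 1 had the lowest macrophage mean in both other groups too. In OB-control livers Lcn2, Saa3, Apcs and Hp were lowest in that array, but Saa4 and Hpx were not and Orm2 was highest. There the macrophage mean peaked in replicate 3, but Lcn2, Saa3, Hp and Hpx in replicate 2. In N-control livers Lcn2, Saa3, Saa4, Hp and Hpx were lowest in replicate 1, but Orm2 and Apcs were not. How many of all genes follow such orders was not counted. The part of macrophages in these values was not tested. Of the 12 macrophage means, 10 lay above OB-control in OB-TUDCA livers (median log2 difference 0.29, against 0.01 over all genes), from -0.08 for Clec4f, a marker of resident Kupffer cells, to 0.71 for Marco, a scavenger receptor. The groups overlapped for all 12. Without OB-TUDCA replicate 1, C1qb and C1qc of this list and Retnlg of the neutrophil list passed between OB-TUDCA and N-control livers.

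**Figure D5:**
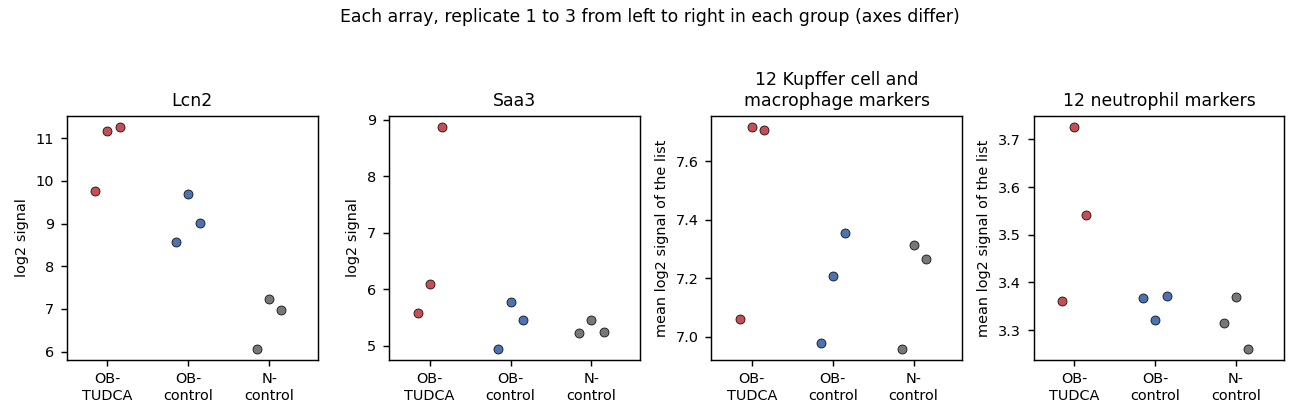
Log2 signal of Lcn2 and Saa3 and the mean log2 signal of 12 Kupffer cell and macrophage and 12 neutrophil markers in each array, with OB-TUDCA, OB-control and N-control from left to right and replicates 1 to 3 in each. OB-TUDCA replicates 2 and 3 are the highest arrays in all 4 panels.

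Other cell types were checked over the same arrays. Of the 9 measured hepatocyte markers 1, Hnf4a, passed (higher in OB-TUDCA than in N-control livers, limma adjusted p = 0.0451), and of the 19 acinar markers 0 did in any comparison. Most hepatocyte markers went the other way from Hnf4a: in OB-TUDCA livers 7 of the 9 means lay below N-control and 2 above. Their median log2 difference was -0.055, against 0.04 over all genes. Without N-control replicate 2, which held the acinar signal, 0 of the 10 genes passed between OB-TUDCA and OB-control livers and 2, Lcn2 and Il6ra, between OB-TUDCA and N-control livers. Of 8 sinusoidal endothelial markers, Cd93 rose by 1.51 in OB-TUDCA relative to OB-control livers, just under the threshold, and passed in 1 of the 9 omissions (without OB-TUDCA replicate 1). In that omission Kdr passed as well, but lower, and Lyve1 passed as higher without OB-control replicate 3. The 8 markers were mixed: 3 means lay above OB-control and 5 below. At an unadjusted limma p under 0.05, 3 were higher and 2 lower, against 6.26% and 5.72% of all genes. Relative to N-control livers Cd93 and Lyve1 were higher and Kdr and Fcgr2b lower in OB-TUDCA. Of 7 measured adipocyte markers, Fabp4 was higher in OB-TUDCA than in N-control livers, and of 2 measured red cell markers Slc4a1 was higher and Alas2 lower in the same comparison. The adipocyte means were mixed there, 4 above and 3 below N-control (median log2 difference 0.07, against 0.04 over all genes). Without N-control replicate 2, only the calls of Cd93 and Lyve1 against N-control livers held among those of Hnf4a and the endothelial, adipocyte and red cell markers.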

How the data were processed

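Liver RNA was put on 9 Mouse Gene 1.0 ST arrays of Affymetrix (3 OB-TUDCA, 3 OB-control and 3 N-control). The authors used RMA in Affymetrix Expression Console (version not given in the sources used here) to make the deposited log2 signals, which were taken unchanged. RMA makes the arrays' distributions alike (medians of 4.50 to 4.58), so changes are relative to the bulk of genes. Of 35556 probe sets, 21789 had exactly 1 symbol in the platform annotation and were averaged to 19938 genes. The 1621 with several symbols and the 12146 without a symbol were not used, and dim genes were kept.

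Groups were compared with limma 3.58.1 in R 4.3.3, in a fit of 3 group means to all 9 arrays (6 residual and 3.33 prior degrees of freedom), two-sided, with p-values adjusted by Benjamini-Hochberg across all genes and called under 0.05. Arrays have no read depth, and their number limits the precision: an exact permutation test of 3 against 3 cannot go below 0.1. Promoter sequences were taken from RefSeq (GRCm38.p6) and motifs were matched in Python 3.11.15. Figures were drawn with matplotlib 3.10.9. The R package data.table was version 1.17.8.

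The 10 genes and the 12 lists beside them were chosen with earlier results of these data known. Named genes are the 10, the receptor, kinase and factor genes of the pathway, Lep, at most 6 genes past the threshold per list and comparison, and the 5 genes most like Il6ra and Lcn2. Clec4f, Marco, Serpina3n, C1qb, C1qc, Retnlg, Hamp, Mbl1, Orm1 and Orm3 were named in addition after their values were seen. Alternatives were 10 other settings and each array left out in turn; leaving arrays out for the 12 lists was added after seeing the data.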

Additional observations from a re-analysis of the deposited data

How the results depend on the processing

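For the single genes, 512 of the values under alternative settings kept direction and side of the threshold, 35 fell below it, 15 passed it and 11 changed sign. The counts of the 10 genes past the threshold moved as follows. Between OB-TUDCA and OB-control livers (1 gene) the count was 0 with only the arrays compared and with the pancreatic acinar covariate. It was also 0 with the methods' t-test (3 unadjusted), which passed 0 of all genes (1418 unadjusted). It was 2 (Lcn2 and Saa3, among 27 higher genes in all) with the fold and SAM limits of the methods. Il6ra, at 2.02-fold, fell short of their limit of 2.3-fold for higher genes. The mean of Saa3 rested on OB-TUDCA replicate 3. Leaving out each array gave 0 to 1. Between OB-control and N-control livers (0 genes) it was 2 (Lcn2 and Orm2) when the dimmest of 3 equal bins of genes was left out and with array weights. It was 1 with quantile normalization once more or with array medians subtracted (Lcn2) and 1 with only the arrays compared (Orm2). Leaving out each array gave 0 to 2. Between OB-TUDCA and N-control livers (5 genes) it was 2 with only the arrays compared and 3 with the covariate. With the methods' t-test it was 0 (6 unadjusted), where 0 of all genes passed (2410 unadjusted). Leaving out each array gave 2 to 6. The cause was not tested for any of these.

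With the replicate number as a block the counts were 2 (Il6ra and Lcn2) between OB-TUDCA and OB-control livers and 1 (Lcn2) between OB-control and N-control livers. Between OB-TUDCA and N-control livers the count was 5, with Saa4 and without Orm2. The labels do not say that a number marks a shared litter or day, and deviations of same-numbered arrays correlated by only -0.075 to 0.209, so the arrays were not treated as paired.

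Signs changed only for differences that had not passed. Between OB-control and N-control livers, the log2 difference became -0.014 with array weights for Saa3, and 0.12 on probe set 10383010 alone and 0.059 with the covariate for Socs3. Leaving out each array moved it from -0.10 (without OB-control replicate 2) to 0.31 for Saa3, from -0.25 to 0.061 (without N-control replicate 2) for Socs3, and from -0.42 to 0.0088 (without OB-control replicate 1) for Apcs. Between OB-TUDCA and OB-control livers it then ranged from -0.53 to 0.44 for Orm2, above 0 without OB-control replicate 1 (0.054) or OB-TUDCA replicate 1 (0.44). For Saa4 it ranged from -0.21 to 0.11, above 0 when OB-control replicate 3 (0.019) or OB-TUDCA replicate 1 (0.11) or 2 (0.031) was left out.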
